A study of Mus musculus with 30 samples.

Results

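Heat shock chaperones were read out in 30 libraries of sorted mammary epithelial cells. The set was given by name as Hspa1a, Hspa1b, Hspa8, Hsph1, Hsp90aa1, Hspb1, Hspd1, Hspe1, Dnajb1 and Bag3, and all 10 of these genes were among the 11137 genes of the deposited table. All 10 passed the filter on low values in every comparison.

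Luminal and basal cells were isolated from digested mammary glands (MGs) of female mice of mixed background by CD24 and CD49f staining, with CD45 and CD31 exclusion, and their RNA was sequenced from the 3′ end of the transcripts. All mice carried the Krt8-driven, doxycycline-inducible Cre and the mTmG reporter (K8rta:TETO CRE:mTmG, called K8imTmG here), and K8iΔRank mice carried in addition the floxed alleles of the receptor gene Rank (K8rta:TETO CRE:RANK fl/fl:mTmG). All groups received doxycycline at 1 mg/ml in drinking water, from week 3 to week 8 of age per the labels, whereas the study's methods give a later start. Since Cre was driven by the Krt8 promoter, Rank was targeted in luminal cells, and basal cells of K8iΔRank mice kept it. Virgin mice were compared with age-matched parous mice, whose glands had gone through pregnancy and involution. K8iΔRank dams failed to lactate, so parous K8iΔRank glands had no normal lactation before involution. Luminal libraries came from 3 virgin K8imTmG, 3 virgin K8iΔRank, 5 parous K8imTmG and 4 parous K8iΔRank mice. Basal libraries came from 3 virgin K8imTmG, 4 virgin K8iΔRank, 4 parous K8imTmG and 4 parous K8iΔRank mice. Of the 17 mice, 13 gave both lineages, and libraries are named below by the number of the mouse.

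Molecular chaperones bind proteins that are unfolded or not yet folded and keep them from aggregating. When unfolded proteins build up, heat shock factor 1 (Hsf1) forms trimers, binds heat shock elements in DNA, made of inverted GAA units, and raises the transcription of chaperone genes within minutes. In mammary epithelium chaperone mRNAs are present in resting tissue, and enzymatic digestion of a tissue at body temperature is also known to induce heat shock genes.

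Within the set, Hspa1a and Hspa1b encode the same kind of stress-inducible cytosolic Hsp70, and Hspa8 encodes its constitutive relative Hsc70. Dnajb1 is a J-domain protein (Hsp40) that stimulates the ATPase of Hsp70, Bag3 and Hsph1 (Hsp110) are nucleotide exchange factors of Hsp70, Hsp90aa1 is the inducible cytosolic Hsp90 and Hspb1 a small heat shock protein. Hspd1 (Hsp60) and Hspe1 (Hsp10) form the chaperonin of the mitochondrial matrix, in which Hspe1 is the lid of the Hspd1 chamber.

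Hspd1 and Hspe1 are of interest because they share a promoter. In GRCm39 with the GENCODE vM39 models their canonical transcripts start 108 bases apart on chromosome 1, Hspd1 at 55127183 on the minus strand and Hspe1 at 55127291 on the plus strand, and the stretch between them holds a run of heat shock units. This run is shown from both strands, since its sequence is the same for both genes while their mRNAs moved apart in these libraries. Capitals mark a match to GAANNTTCNNGAA, or to TTCNNGAANNTTC, which is the same motif on the other strand.
Hspd1, chr1:55127210-55127238, minus strand: gccttccgGAAGGTTCTAGAAcggaccgt
Hspe1, chr1:55127210-55127238, plus strand: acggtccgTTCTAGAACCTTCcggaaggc
The match lay 47 to 35 bases before the start of Hspd1 and 73 to 61 bases before the start of Hspe1, and a second match overlapped it. Among the 300 bases before the canonical start, GAANNTTCNNGAA occurred in 2 of the 10 chaperone genes, this pair, and in 105 of 21757 protein-coding genes (0.483%).

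Hspa1a and Hspa1b lie 12918 bases apart on chromosome 17, both on the minus strand and each with a single exon. Their upstream stretches held the shorter motif of a pair of inverted units (GAANNTTC or TTCNNGAA), in capitals here, at the same distance from the start (104 to 97 bases) and with the same flanks.
Hspa1a, chr17:35191219-35191246, minus strand: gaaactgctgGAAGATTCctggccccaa
Hspa1b, chr17:35178301-35178328, minus strand: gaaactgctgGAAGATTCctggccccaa
The shorter motif, whose forms each read the same on both strands and which the longer one contains, occurred before 6 of the 10 chaperone genes (Hspa1a, Hspa1b, Hsph1, Hspb1, Hspd1 and Hspe1) and before 15.0% of all protein-coding genes. A match of letters is a description and not a measured binding site.

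The reads were 86 bases long and came from the transcript ends, so the ends decide how well copies can be told apart. Hspa1a and Hspa1b transcripts were 90.7% identical over the aligned bases but only 50.1% identical over their last 400 bases, and no 86-base window of either end occurred in another gene. For Hspa8, 73.7% of the windows in the last 400 bases also occurred in at least 1 of 9 other gene models, and for Hspb1 the share was 34.9% (Hsp25-ps1). Values of both genes are therefore less certain, since the handling of reads with several matches is not given in the sources used here. Hspa1a, Hspa1b, Hsph1, Hsp90aa1, Hspd1, Dnajb1 and Bag3 had no shared window. In GENCODE vM39 a gene model of Hspd1 also runs over the 3′ end of Hspe1 on the opposite strand. The long noncoding RNA gene Gm53768 likewise overlaps the 3′ end of Hsp90aa1 on the opposite strand. The libraries kept strand, but the sources used here do not state whether counting used it. Values of Hspe1 and Hsp90aa1 are therefore less certain too.

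Depth ranged from 340445 to 3130419 recovered reads per library, so that 1 read was worth 0.381 to 5.43 normalized counts. All 11 basal markers were higher in every basal than in every luminal library, and 10 of 14 luminal markers were higher in every luminal library. The ranges of Rank (Tnfrsf11a) overlapped between luminal libraries labelled K8iΔRank and K8imTmG. In K8iΔRank mice Rank was at 11.5 to 23.8 normalized counts in virgin and 27.0 to 41.1 in parous libraries. In K8imTmG mice these ranges were 9.57 to 18.6 and 12.8 to 64.9. Reads from transcript ends do not show the deleted exons. K8iΔRank therefore stands for the label. By qPCR the study found lower Rank mRNA in sorted luminal cells of K8iΔRank mice that carried GFP, the reporter's sign of recombination. Its sort for sequencing also took GFP-positive luminal cells. The libraries also fell on either side of a gap in Clec2d, a C-type lectin gene, with 65.6 to 199 normalized counts in 14 Clec2d-high and 0.641 to 8.68 in 16 Clec2d-low libraries. In parous K8imTmG luminal cells Rank was 50.4, 64.9 and 49.3 in the Clec2d-low libraries 532, 534 and 558. These were above every parous K8iΔRank luminal library, all of them Clec2d-low. In the Clec2d-high libraries 494 and 557 Rank was 20.2 and 12.8, on 12 and 4 reads. Mitochondrially encoded genes made up 3.36% to 6.37% of normalized counts in Clec2d-high and 1.66% to 3.13% in Clec2d-low libraries. For ribosomal protein genes the shares were 12.8% to 23.7% and 7.66% to 12.6%. The sides thus differed in RNA composition beyond Clec2d. Virgin luminal libraries were all low in K8imTmG and all high in K8iΔRank, virgin basal libraries were all high in K8imTmG and all low in K8iΔRank, parous K8iΔRank luminal and all K8imTmG basal libraries were entirely low and high, respectively, and the remaining 2 groups were mixed (parous K8imTmG luminal 2 of 5 high, parous K8iΔRank basal 2 of 4 high). Genotype in virgin mice and parity in luminal K8iΔRank cells cannot be told apart from this split. Finally, 3 Clec2d-low libraries (basal virgin K8iΔRank 820 and 825, luminal virgin K8imTmG 538) were together the lowest 3 for 331 genes, 2.97% of those outside the set, while the next most common trio was lowest for 113 genes.

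The chaperones summed to 0.254% to 0.482% of all normalized counts per library. The mean share was 0.384% in basal and 0.325% in luminal libraries, and the luminal and basal ranges overlapped. In bulk libraries a lower value can come from fewer cells of a type or from less RNA per cell, and these cannot be told apart.

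**Figure D1:**
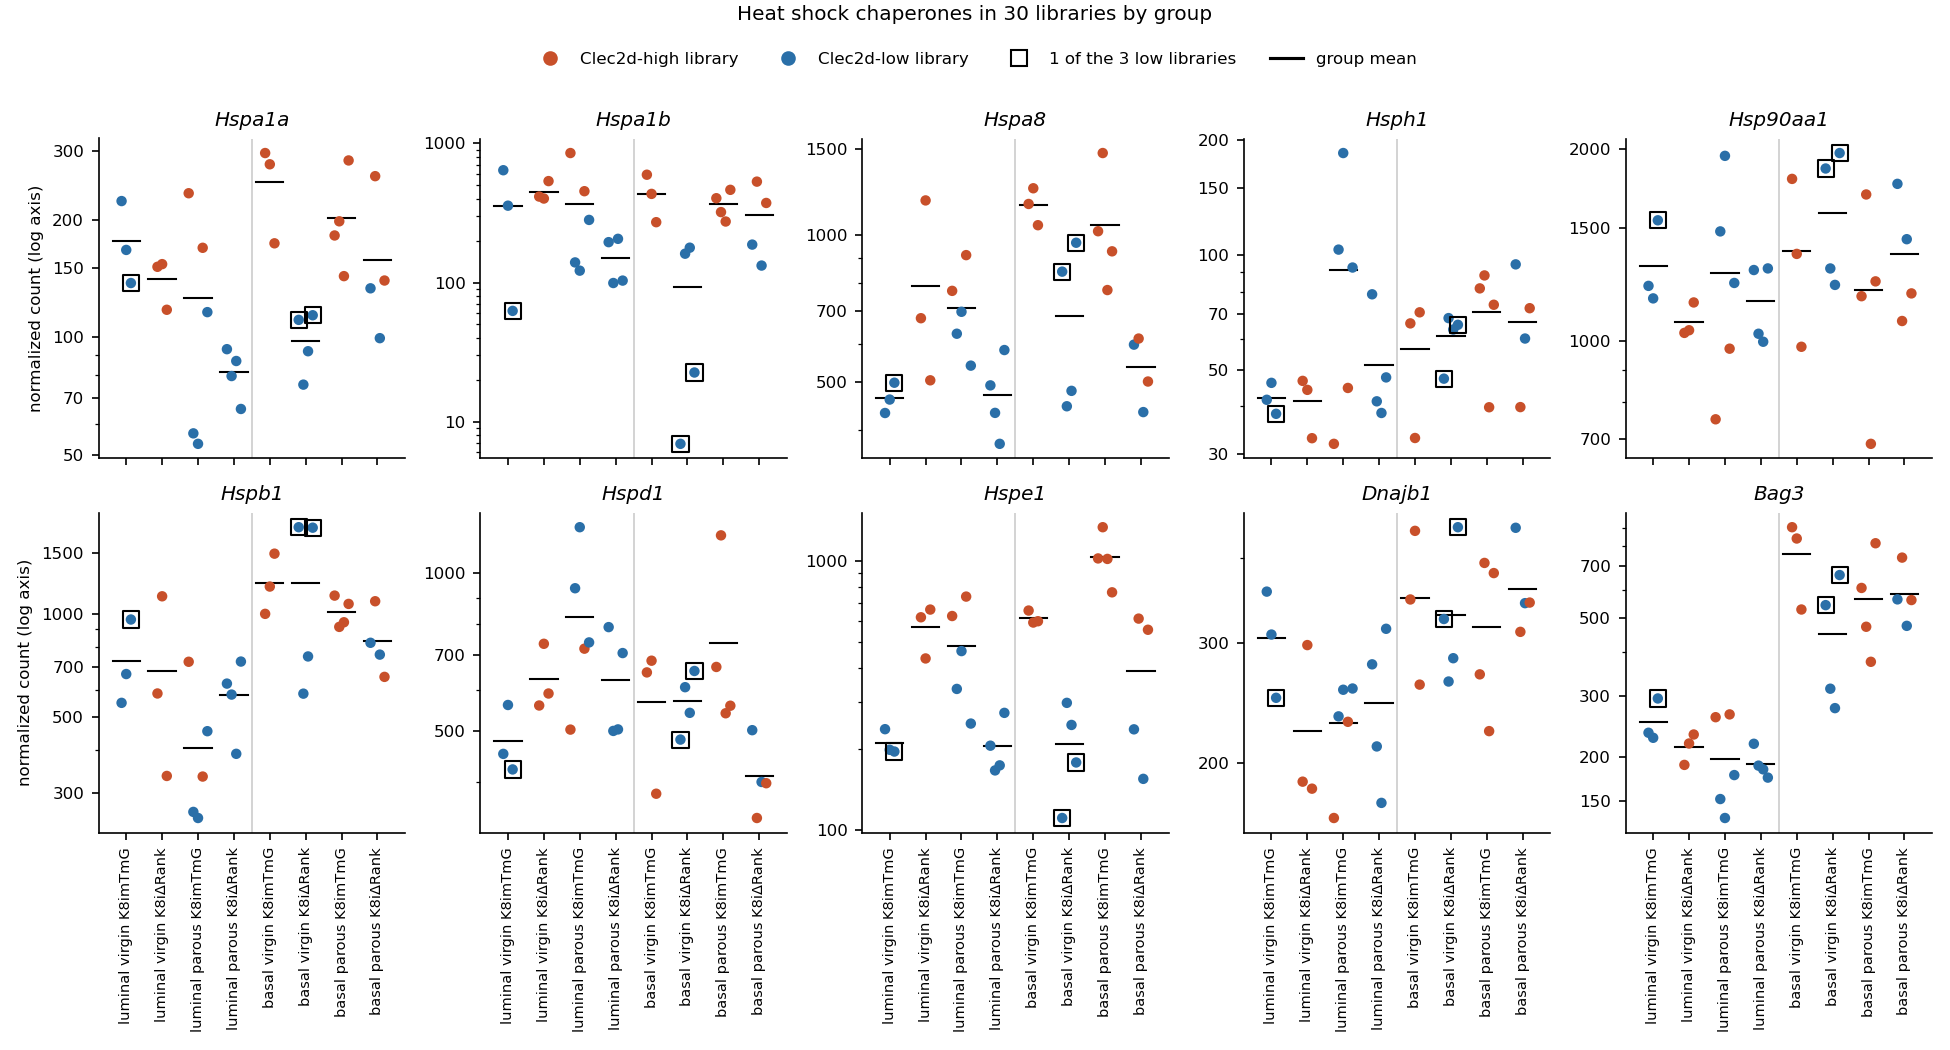
Normalized counts (log axes) of the 10 chaperone genes in the 30 libraries, by lineage, stage and genotype. Each point is a library, coloured by its side of the Clec2d split, squares mark the 3 low libraries and lines are group means. Bag3 was low in all luminal groups, Hspe1 averaged 731 in Clec2d-high and 233 in Clec2d-low libraries, and Hspa1b fell away in the 3 marked libraries.

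Over all 30 libraries Hspa1b ran from 6.92 to 853 normalized counts, a 123-fold range, and Hspe1 from 111 to 1337, a 12.1-fold range. The range of Hspa1b was 37.8-fold without basal virgin K8iΔRank 820 and 8.60-fold without the 3 low libraries, where that of Hspe1 was 8.63-fold. For the other 8 genes the highest library exceeded the lowest by 2.67-fold (Dnajb1) to 7.02-fold (Hspb1). When the 8 groups were put in order of their means, the ranges of neighbouring groups overlapped at each of the 7 steps for 9 of the genes. The exception was Hspe1, whose top group, parous basal K8imTmG (mean 1036), lay wholly above the next, virgin basal K8imTmG (mean 615).

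The first question was whether chaperone levels differed by labelled genotype in luminal cells of virgin mice. In these cells Hspe1 was higher in K8iΔRank, and no other chaperone gene passed the test. Hspe1, the lid of the mitochondrial chaperonin, was at 237, 199 and 196 normalized counts in K8imTmG mice 531, 533 and 538 and at 618, 435 and 661 in K8iΔRank mice 821, 822 and 825. All K8iΔRank libraries were above all K8imTmG libraries. The difference was 1.42 ± 0.25 on the log2(value + 1) scale (± SE, 2.67-fold, limma with Benjamini-Hochberg adjustment, adjusted p = 0.0363). With 1 of 10 chaperone genes called, the background was 0.984% of the 10066 genes tested.

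Its partner Hspd1 was at 453, 562 and 423 in K8imTmG and at 560, 735 and 591 in K8iΔRank, so the groups overlapped (difference 0.39 ± 0.24, adjusted p = 0.365). Hspa8, the constitutive Hsp70, did not overlap between groups, at 433, 461 and 499 against 676, 1179 and 505, but the difference of 0.67 ± 0.31 missed the threshold (adjusted p = 0.238). Hsp90aa1 did not overlap either, at 1219, 1165 and 1545 against 1028, 1038 and 1148 (-0.28 ± 0.24, adjusted p = 0.515). Non-overlap was seen for these 3 of 10 chaperone genes and for 28.3% of all genes tested. The median difference over the chaperone genes was -0.13, against -0.03 over all genes. The call on Hspe1 was lost when any of mice 533, 538, 821, 822 and 825 was left out, and without K8imTmG 538, 1 of the 3 low libraries, the difference was 1.37 ± 0.26 (adjusted p = 0.0534).

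In luminal cells of parous mice the direction of Hspe1 was the opposite, and no chaperone gene passed the test. Hspe1 was at 625, 335, 463, 738 and 249 in K8imTmG mice 494, 532, 534, 557 and 558 and at 206, 167, 174 and 273 in K8iΔRank mice 787, 794, 798 and 830. Only the highest K8iΔRank library, 830, reached above the lowest K8imTmG library, 558. The difference was -1.15 ± 0.31 (limma, adjusted p = 0.111). Hspa8 was at 541 to 911 in K8imTmG and 374 to 582 in K8iΔRank, a difference of -0.59 ± 0.20 (adjusted p = 0.155).

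Hspa1b ran from 122 to 853 in parous K8imTmG and from 99.2 to 206 in parous K8iΔRank luminal cells (-0.99 ± 0.53, adjusted p = 0.322). Its high values came from the Clec2d-high mice 494 (853) and 557 (454). Among the Clec2d-low libraries alone, 3 against 4, the Hspa1b difference was -0.24 ± 0.35 (adjusted p = 0.702) and that of Hspe1 was -0.75 ± 0.24 (adjusted p = 0.101). The count of 0 called chaperone genes stood beside 0.0991% of all genes by limma (10 of 10090), with 2009 genes at an unadjusted p under 0.05, 611 genes called by DESeq2 and 20 by edgeR. None of the 10 chaperone genes was free of overlap, against 9.73% of all genes. DESeq2 called Hspe1 as the single chaperone gene, and edgeR called none.

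In basal cells of virgin mice, in which the design leaves Rank intact, Hspa1a and Hspe1 were lower in K8iΔRank. Hspa1a, an inducible Hsp70, was at 296, 277 and 174 in K8imTmG mice 531, 538 and 568 and at 111, 75.7, 92.1 and 114 in K8iΔRank mice 820, 821, 822 and 825. The difference was -1.32 ± 0.26 (limma, adjusted p = 0.0177), a 2.49-fold lower level. Hspe1 was at 655, 591 and 598 in K8imTmG and at 111, 297, 246 and 178 in K8iΔRank, which is 3.14-fold lower (-1.65 ± 0.31, adjusted p = 0.0159). In both genes every K8iΔRank library was below every K8imTmG library.

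The 2 of 10 chaperone genes called stood beside 8.99% of the 10616 genes tested. Hspa1b was at 596, 434 and 272 in K8imTmG and at 6.92, 161, 178 and 22.6 in K8iΔRank, with the lowest values in 820 and 825. Its difference of -3.10 ± 0.96 missed the threshold (adjusted p = 0.0694) and shrank to -1.28 ± 0.31 without these libraries (adjusted p = 0.0552). Hspa8 was at 1159, 1248 and 1049 against 842, 447, 480 and 966 (-0.83 ± 0.29, adjusted p = 0.0978). Non-overlap was seen for 4 of 10 chaperone genes (Hspa1a, Hspa1b, Hspa8 and Hspe1) and for 28.2% of all genes.

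Bag3 was at 903, 839 and 527 in virgin basal K8imTmG and at 542, 314, 276 and 660 in K8iΔRank cells, and the groups overlapped (-0.81 ± 0.34, adjusted p = 0.145). Hspd1, Hsph1, Hsp90aa1, Hspb1 and Dnajb1 differed by -0.16 to 0.21, with 95% intervals that included 0. Leaving out 820 and 825, a choice made after the data were seen, gave 620 calls over all genes tested, against 954 in the full fit. Among them, 4 chaperone genes were called as lower in K8iΔRank. These were Hspa1a (-1.53 ± 0.28), Hspa8 (-1.31 ± 0.17), Hspe1 (-1.18 ± 0.18) and Bag3 (-1.32 ± 0.26), with adjusted p = 0.0285 or less by limma. The call on Hspa1a was lost without K8imTmG mouse 531 or 538 and that on Hspe1 without 538, 568 or K8iΔRank 825. Summed endothelial markers were 332 to 1374 normalized counts in K8iΔRank and 245 to 612 in K8imTmG basal libraries, with none of the 8 markers called. Summed immune markers were 17.4 to 73.9 against 65.2 to 149, with Lyz2 called as lower (1 of 3 measured). Summed erythroid markers were 47.4 to 239 against 4.13 to 38.8, with Hba-a2 called as higher (4.36 ± 0.86), and the luminal marker Esr1 was called as lower (-1.27 ± 0.33). Summed immediate early genes, which respond to handling, were 29921 to 42224 against 43612 to 50115 without overlap. The part of these in the chaperone differences was not tested.

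In basal cells of parous mice no chaperone gene passed the threshold, while Hspe1, Hspa8 and Hspd1 did not overlap between genotypes. Hspe1 was at 1024, 1337, 1019 and 766 in K8imTmG mice 532, 534, 557 and 558 and at 237, 611, 155 and 556 in K8iΔRank mice 787, 794, 798 and 830 (-1.60 ± 0.39, limma adjusted p = 0.0594). Hspa8 was at 1019, 1474, 772 and 927 against 597, 614, 434 and 502 (-0.94 ± 0.23, adjusted p = 0.0606). Hspd1 was at 664, 1182, 541 and 560 against 503, 342, 401 and 398 (-0.78 ± 0.25, adjusted p = 0.112).

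The K8iΔRank libraries with higher Hspe1, 794 and 830, were the Clec2d-high ones. Against the K8imTmG libraries, which were all Clec2d-high, these 2 libraries gave -0.80 ± 0.23 for Hspe1, -0.87 ± 0.25 for Hspa8 and -0.92 ± 0.29 for Hspd1, with adjusted p = 0.314, 0.314 and 0.378. The 3 of 10 chaperone genes without overlap stood beside 12% of all genes, and the 0 called beside 0.906% (96 of 10592 by limma, 2393 at an unadjusted p under 0.05, 645 by DESeq2 and 67 by edgeR). DESeq2 called these same 3 chaperone genes and edgeR none.

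**Figure D2:**
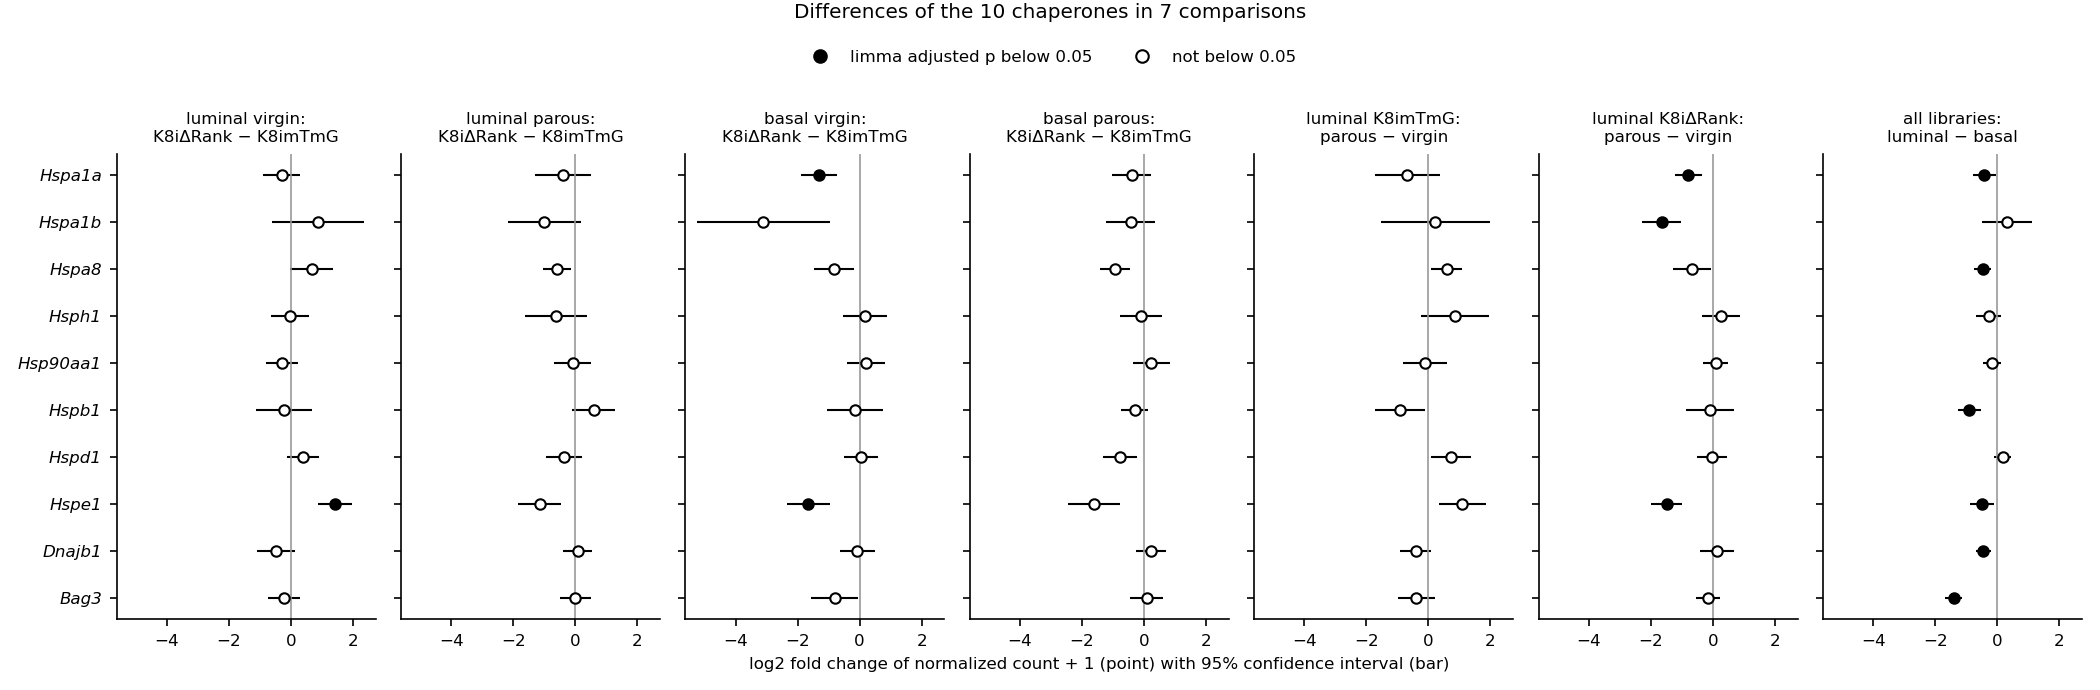
Differences of the 10 chaperone genes on the log2(value + 1) scale in the 4 genotype, 2 luminal parity and 1 lineage comparisons, with 95% intervals from limma as bars. Filled points passed the adjusted threshold of 0.05, and Hspe1 was called in 4 of the 7 panels, higher in K8iΔRank in virgin luminal cells (1.42) and lower in virgin basal cells (-1.65).

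The next question was how a past pregnancy related to chaperone levels. In K8imTmG luminal cells no chaperone gene passed the test, and 0 of 10 stood beside 2.2% of 10279 genes called by limma (2230 at an unadjusted p under 0.05, 1060 by DESeq2, 277 by edgeR). Hspe1, at 196 to 237 in virgin and 249 to 738 in parous mice, was higher in every parous library (1.09 ± 0.34, adjusted p = 0.116). Hspa8, at 433 to 499 in virgin and 541 to 911 in parous mice, did not overlap either (0.59 ± 0.22, adjusted p = 0.167). Non-overlap was found for these 2 of 10 chaperone genes and for 16.9% of all genes.

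All virgin K8imTmG luminal libraries were Clec2d-low, and 3 of the 5 parous ones were. Within the Clec2d-low libraries, a subset set by a split found in these same data, limma called 4 chaperone genes. The share of all genes called in this smaller fit is not given here, and the share given above belongs to the full fit. Hsph1, the Hsp110 exchange factor, was higher, at 103, 185 and 92.6 in parous against 41.7, 46.1 and 38.3 in virgin libraries (1.51 ± 0.28, adjusted p = 0.0191). Hspd1 was higher too (0.99 ± 0.23, adjusted p = 0.0308), while Hspa1a (-1.28 ± 0.33, adjusted p = 0.0421) and Hspb1 (-1.17 ± 0.29, adjusted p = 0.039) were lower. In Hspb1, parous libraries 532, 534 and 558 were at 265, 254 and 455 and virgin libraries 531, 533 and 538 at 550, 667 and 961.

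In K8iΔRank luminal cells Hspa1a, Hspa1b and Hspe1 were lower after parity. Hspa1b was at 415, 402 and 536 in virgin mice 821, 822 and 825 and at 195, 99.2, 206 and 103 in parous mice 787, 794, 798 and 830, 3.12-fold lower (-1.64 ± 0.28, limma adjusted p = 0.0057). Hspa1a was at 151, 154 and 118 in virgin and at 93.2, 79.6, 87.0 and 65.6 in parous libraries (-0.79 ± 0.20, adjusted p = 0.0259). Hspe1 fell from 618, 435 and 661 to 206, 167, 174 and 273 (-1.48 ± 0.23, adjusted p = 0.00387). In all 3 genes every parous library was below every virgin library.

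The 3 of 10 called chaperone genes stood beside 16% of 10249 genes, and the same 3 of 10 without overlap beside 29.7%. Hspd1, at 560, 735 and 591 in virgin and 790, 501, 504 and 705 in parous libraries, showed almost the same mean (-0.03 ± 0.22, adjusted p = 0.949). Virgin libraries were all Clec2d-high and parous ones all Clec2d-low. The call on Hspa1a was lost when any of mice 794, 821, 822 and 830 was left out. Summed fibroblast markers were 715 to 855 normalized counts in virgin and 177 to 423 in parous libraries, with Dcn called as lower (1 of 4 tested). Of the basal markers 5 of 5 tested were below 0 (median -1.25), with Acta2 called (-1.93 ± 0.44), and their sum was 106 to 348 in virgin and 70.7 to 115 in parous libraries. The luminal markers Foxa1 (-2.17 ± 0.42) and Esr1 (-1.30 ± 0.24) were also called as lower. Summed immediate early genes were 27558 to 31743 and 19495 to 26461. The part of these in the chaperone differences was not tested.

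In basal cells no gene of the table passed the test for parity by limma in either genotype, so that 0 of 10 chaperone genes stood beside 0%. In K8imTmG 969 genes had an unadjusted p under 0.05, DESeq2 called 44 and edgeR 8, and in K8iΔRank 1036 genes had one, DESeq2 called 91 and edgeR 0. Hspe1 in K8imTmG was at 655, 591 and 598 in virgin and 1024, 1337, 1019 and 766 in parous basal libraries, all of them Clec2d-high (0.73 ± 0.20, adjusted p = 0.349). It was the single chaperone gene without overlap, beside 9.35% of all genes.

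In K8iΔRank basal cells no chaperone gene was free of overlap, beside 6.1% of all genes. Hspa1b was at 6.92, 161, 178 and 22.6 in virgin and at 187, 532, 132 and 373 in parous libraries (2.46 ± 0.91, adjusted p = 0.487). Without virgin libraries 820 and 825 the difference was 0.64 ± 0.50 (adjusted p = 0.762).

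The genotype differences in virgin and parous luminal cells were then set against each other in 1 fit of the 15 luminal libraries. This interaction was negative for Hspe1 (-2.57 ± 0.44, limma adjusted p = 0.00765) and for Hspa8 (-1.26 ± 0.37, adjusted p = 0.0376), which means that the genotype difference was lower in parous than in virgin mice. These 2 of 10 chaperone genes stood beside 12.9% of 10262 genes. The interaction uses the same libraries as the luminal genotype and parity comparisons above and is no separate evidence for them.

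With the side of the Clec2d split as a term, the interaction was -1.16 ± 0.50 for Hspe1 (adjusted p = 0.219) and -0.65 ± 0.52 for Hspa8 (adjusted p = 0.529). Only parous K8imTmG, with 2 Clec2d-high and 3 Clec2d-low libraries, held both sides among the luminal groups. The term was estimated from that group alone, so this fit cannot separate the interaction from the split. The call on Hspa8 was lost when any of mice 531, 533, 538, 557, 794, 798, 821 and 822 was left out (interaction -1.31 ± 0.40, adjusted p = 0.0746 without K8imTmG 538), while that on Hspe1 held without each of the 15 mice. Of the other markers tested, luminal ones were called as positive in 3 of 14, basal Acta2 as negative (-2.15) and endothelial Eng as positive (3.62), and their part in the interaction of the chaperone genes was not tested. In basal cells 0 of 10 chaperone genes and 0% of 10607 genes passed the interaction test by limma, 1082 genes had an unadjusted p under 0.05, DESeq2 called 18 and edgeR 0.

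Luminal and basal cells were compared over all libraries as the mean of the 4 luminal against the mean of the 4 basal groups. Bag3, Hspb1, Hspa8, Hspe1, Dnajb1 and Hspa1a were lower in luminal cells, and no chaperone gene was higher. With 6 of 10 called, the background was 55.7% of 11133 genes, 27% lower in luminal and 28.7% higher. The median difference was -0.43 over the chaperone genes and 0.04 over all genes.

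Bag3, which couples Hsp70 to selective autophagy and to small heat shock proteins, differed most. It ran from 135 over a median of 219 to 294 normalized counts in luminal and from 276 over 561 to 903 in basal libraries, 2.65-fold lower in luminal cells (-1.40 ± 0.14, limma adjusted p = 7.43e-10). The single basal library within the luminal range was that of virgin K8iΔRank mouse 822, at 276. Hspb1, a small heat shock protein that also binds actin, ran from 254 over 581 to 1123 in luminal and from 585 over 998 to 1784 in basal libraries (-0.89 ± 0.19, adjusted p = 0.000172).

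Dnajb1, the J-domain partner of Hsp70, ran from 166 over 249 to 357 in luminal and from 223 over 343 to 444 in basal libraries (-0.44 ± 0.12, adjusted p = 0.00271). Hspa8 differed by -0.46 ± 0.13 (adjusted p = 0.00403), Hspe1 by -0.48 ± 0.19 (adjusted p = 0.0285) and Hspa1a by -0.42 ± 0.18 (adjusted p = 0.0484). No chaperone gene was free of overlap between the lineages, against 9.57% of all genes. Hspd1 had a slightly higher luminal mean, 663 against 572, that missed the threshold (0.17 ± 0.13, adjusted p = 0.279).

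In the 13 mice with both lineages Bag3 was lower in the luminal library of 13 of 13, by 0.33 to 2.18 on the log2 scale. Hspb1 and Dnajb1 were lower in luminal cells of 10 of 13 mice and Hspa1a, Hspa8 and Hspe1 of 9 of 13. With the mouse as a fixed block in the fit of these 26 libraries, 4 chaperone genes were called, namely Bag3 (-1.45), Hspb1 (-0.90), Hspa1a (-0.59) and Dnajb1 (-0.47). In that fit Hspa8 (-0.38, adjusted p = 0.139) and Hspe1 (-0.57, adjusted p = 0.123) did not pass. The count over all genes in that fit is not given here, and alternatives to the main lineage fit called 3070 to 6508 genes.

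For Hspe1 the direction within a mouse differed between mice with unlike sides of the Clec2d split. In the 7 mice with a Clec2d-low luminal and a Clec2d-high basal library, the luminal minus basal difference was -1.87 to -1.02. In the 3 mice with the sides the other way round it was 0.82 to 1.88, and in the 3 mice with both libraries on 1 side -0.46 to 0.17. The mice with the sides the other way round were 821, 822 and 825, the only virgin K8iΔRank mice with both lineages. Side and group therefore cannot be told apart there. Hspa1a had the same signs, at -1.87 to -0.41 in the first set and 0.05 to 0.99 in the second, with -0.51 to 0.24 in the third. Bag3 was negative in all 3 sets, at -2.18 to -1.51, -1.50 to -0.33 and -1.36 to -0.50. With the side as a term over the 30 libraries, the lineage difference was -1.25 ± 0.14 for Bag3 (adjusted p = 1.18e-08) and -0.13 ± 0.15 for Hspe1 (adjusted p = 0.466), that of Hspa1a was -0.11 ± 0.15 (adjusted p = 0.576), and Hsph1 (-0.58 ± 0.18) and Hsp90aa1 (-0.37 ± 0.13) were called as lower in luminal cells. The term was estimated only within parous luminal K8imTmG and parous basal K8iΔRank cells, since every other group lay wholly on 1 side. These adjusted differences therefore rest on those groups.

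Markers of other cells were also lower in luminal libraries, with 8 of 8 fibroblast, 6 of 8 endothelial and 3 of 3 measured immune markers called, as were the single measured adipocyte marker Fabp4 (-4.06) and the erythroid marker Hbb-bs (-2.43). The endothelial marker Vwf was called as higher (2.64). Summed fibroblast markers ran from 101 to 961 normalized counts in luminal and from 669 to 1213 in basal libraries, endothelial ones from 16.3 to 192 and from 107 to 1374, and immune ones from 9.59 to 34.6 and from 17.4 to 149. Their part in the lineage differences of the chaperone genes was not tested.

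**Figure D3:**
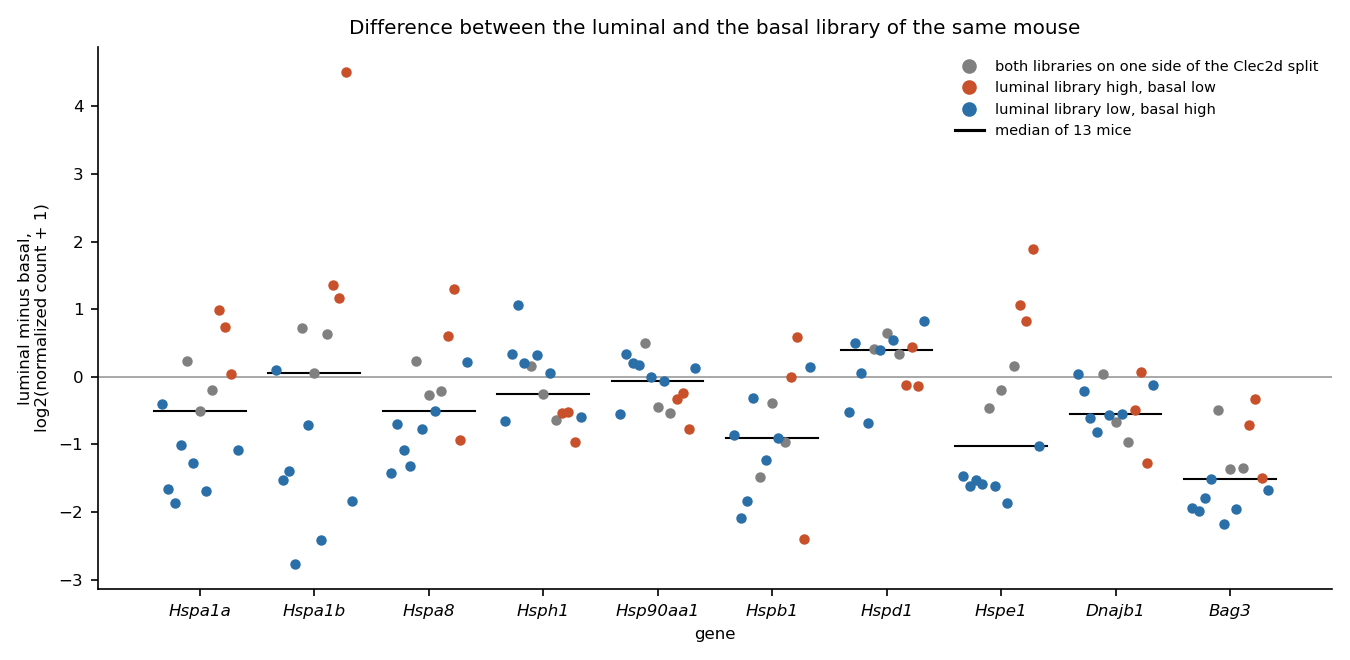
Luminal minus basal difference, on the log2(value + 1) scale, of each chaperone gene in the 13 mice with libraries of both lineages, coloured by which side of the Clec2d split the libraries were on. Bag3 was below 0 in all 13 mice. Hspe1 and Hspa1a were below 0 in the 7 mice with a Clec2d-low luminal and Clec2d-high basal library. Both were above 0 in the 3 mice with the reverse, all of them virgin K8iΔRank.

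Hspd1 and Hspe1, whose products work as a unit and whose promoter run is printed above, were compared within each library. The ratio of Hspe1 to Hspd1 was 0.592 to 1.88 in the 14 Clec2d-high libraries, with a median of 1.19, and 0.230 to 0.523 in the 16 Clec2d-low libraries, with a median of 0.367. These ranges did not overlap. The comparison was chosen after the values were seen and was not tested.

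The separation was present in each lineage, with ratios of 0.867 to 1.88 against 0.230 to 0.489 in basal and 0.592 to 1.24 against 0.260 to 0.523 in luminal libraries. Mean Hspd1 was 608 normalized counts in Clec2d-high and 627 in Clec2d-low libraries, whereas mean Hspe1 was 731 and 233. Neither gene alone separated the sides. Over the whole table, 152 genes were higher and 93 lower in every Clec2d-high than in every Clec2d-low library, and 0 of the chaperone genes were among them.

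The neighbouring Hsp70 genes were read the same way, again after the values were seen. The ratio of Hspa1b to Hspa1a was 1.25 to 4.56 in 27 libraries. In the 3 low libraries it was 0.0625 (basal virgin K8iΔRank 820), 0.198 (basal virgin K8iΔRank 825) and 0.455 (luminal virgin K8imTmG 538). Hspa1b rested on 6, 21 and 85 reads there, while Hspa1a, from the same stretch of chromosome 17 and with the same printed motif, had 96, 106 and 187 reads. Hspa1b was at 99.2 or more in every other library.

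**Figure D4:**
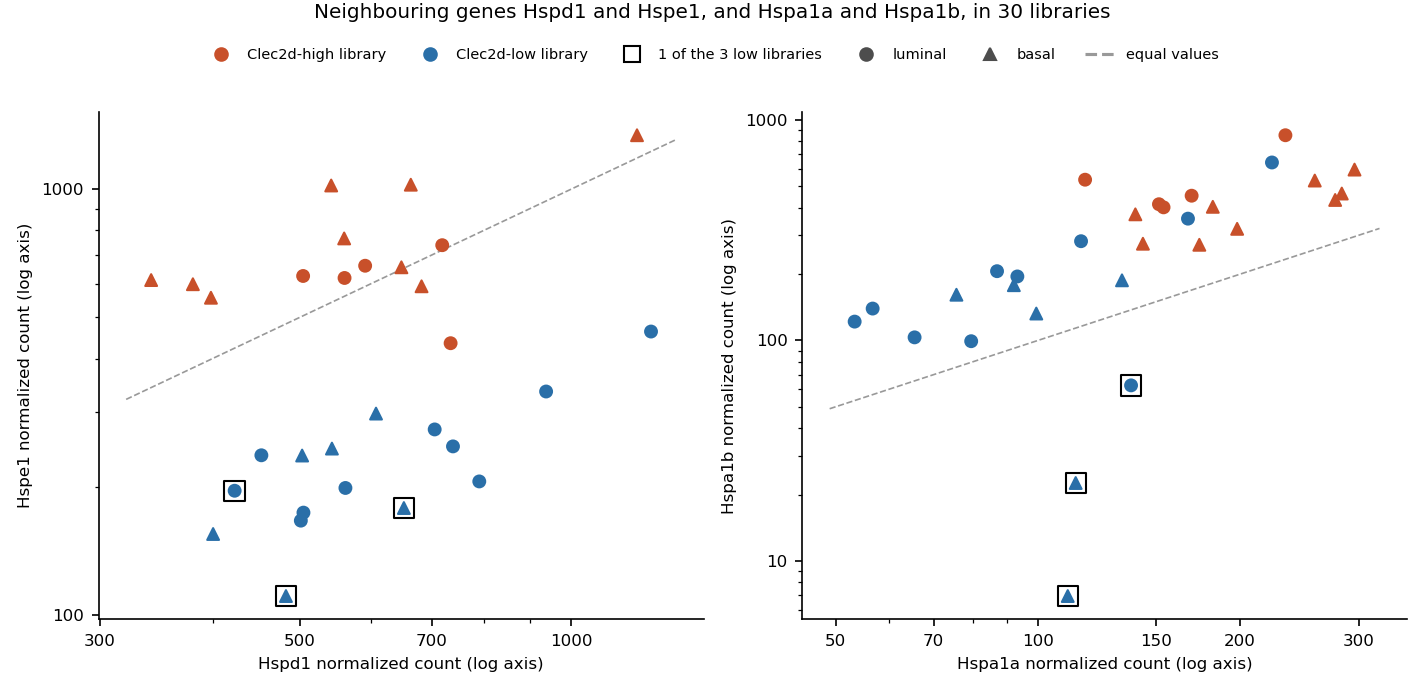
Normalized counts (log axes) of Hspe1 against Hspd1 and of Hspa1b against Hspa1a in the 30 libraries, coloured by side of the Clec2d split, with squares for the 3 low libraries. Clec2d-high and Clec2d-low libraries formed separate bands for Hspe1 and Hspd1 (ratios of 0.592 or more against 0.523 or less), and the squares lay far below the other points for Hspa1b and Hspa1a.

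Other chaperone classes, listed for this comparison with earlier results of these data known, were called in both directions between lineages. Of 10 further mitochondrial chaperones and proteases 5 were higher in luminal cells, among them Hspa9 (mitochondrial Hsp70, 0.41), and 1 was lower, with a median of 0.33. Of 4 other small heat shock proteins measured 3 were lower in luminal cells, Hspb6 (-1.92), Hspb8 (-1.61), a partner of Bag3, and Cryab (-0.93). Of 13 other J-domain proteins of cytosol and nucleus 6 were higher and 2 lower, and of 12 other Hsp70-related proteins 4 were higher, with Hspa4l (1.36 ± 0.16) first, and 4 lower. Hsp90 beta and the Hsp90 cochaperones had 4 of 13 higher and 2 lower, and the TRiC subunits, which fold actin and tubulin, 2 of 8 higher and 0 lower.

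Endoplasmic reticulum chaperones had 2 of 10 higher and 2 lower, with Dnajc3 at 1.32 ± 0.12 and Serpinh1, the collagen chaperone, at -2.87 ± 0.21. Neither of the 2 polyubiquitin genes was called. Hsf1, the factor that drives heat shock genes, was lower in luminal cells (-0.66 ± 0.18, limma adjusted p = 0.0034), and its luminal interaction of genotype and parity was -1.80 ± 0.53 (adjusted p = 0.0401). Hsf1 rested on few reads, with group means of 13.2 to 40.9 normalized counts. Its mean was 29.4 in virgin K8iΔRank luminal libraries, all Clec2d-high. In virgin K8imTmG and parous K8iΔRank luminal libraries, all Clec2d-low, it was 13.2 and 14.2. The part of the split was not tested. Hsf2 was called in no comparison.

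Immediate early and dissociation response genes, which rise within minutes of tissue handling, moved between lineages as well, with 19 of 32 lower in luminal cells and 6 higher. Egr2 (-4.58 ± 0.24) and Mt2 (-2.67 ± 0.20) were among the lower and Klf6 (1.41 ± 0.16) among the higher. Their summed level was 19495 to 36801 normalized counts in luminal and 24144 to 50115 in basal libraries. After group means were removed, the log2 levels of Bag3 and Hspa1a correlated with this sum over the 30 libraries at r = 0.697 and 0.685, against -0.186 to 0.349 for the other 8 chaperone genes. Correlations with the share of ribosomal protein genes ran from -0.592 (Hsph1) to 0.690 (Hspe1). The libraries share mice and side of the split, and the part of tissue handling in the chaperone levels was not tested.

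In virgin basal cells, 6 of 32 immediate early genes were lower and 1 higher in K8iΔRank, with Junb at -1.46 ± 0.22, Ier5 at -1.18 ± 0.23, Nfkbia at -0.97 ± 0.21 and Klf4 at 1.63 ± 0.39. Of 10 endoplasmic reticulum chaperones 3 were higher, among them Pdia4 (2.51 ± 0.45), and 2 lower. Of 13 J-domain proteins 2 were higher, among them Dnajc2 (0.98 ± 0.21), and 2 lower. None of the 8 TRiC subunits and of the 10 further mitochondrial chaperones and proteases was called.

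In K8iΔRank luminal cells the immediate early genes were likewise split after parity, with 6 of 31 lower, among them Junb (-1.41 ± 0.26) and Btg2 (-1.24 ± 0.20), and Klf4 higher (1.26 ± 0.30). Hyou1 (-1.36 ± 0.24) was lower and Pdia4 (1.45 ± 0.28) higher among the endoplasmic reticulum chaperones, and the TRiC subunit Cct5 was higher (1.02 ± 0.25). In K8imTmG luminal cells, where no chaperone gene of the set was called, Dnajc9 (1.74 ± 0.31), Serpinh1 (2.02 ± 0.39) and Ier2 (1.23 ± 0.25) were higher after parity. In the luminal interaction Unc45a (1.61 ± 0.37), Klf4 (2.47 ± 0.57) and Hspa13 (1.73 ± 0.41) were positive and Hspa14 (-2.10 ± 0.36), Ier2 (-2.17 ± 0.41) and Dnajc9 (-2.45 ± 0.48) negative.

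Finally, the genes most like each chaperone gene were sought over the 30 libraries after the group means were removed on the log2(value + 1) scale. Hspa1b was closest to Cttn (r = 0.956), Myl12a (0.943) and Chmp5 (0.942), and these values were 0.931, 0.903 and 0.912 without the 3 low libraries. Hspe1 was closest to Glrx3 (0.914), Bola2 (0.896) and Ndufb6 (0.893). The first gene for the others was Eif4a2 for Hspa1a (0.830), Rpl29 for Hspa8 (0.846), Rmdn2 for Hsph1 (0.876), Psmd7 for Hsp90aa1 (0.883), Foxo4 for Hspb1 (0.892), Hnrnpdl for Hspd1 (0.862), Frat2 for Dnajb1 (0.774) and Smim22 for Bag3 (0.818). No chaperone gene of the set was among the 3 genes closest to another. Between chaperone genes r ran from -0.571 (Hspa1a and Hsph1) to 0.748 (Hsp90aa1 and Hspd1). It was 0.729 for Hspa1a and Bag3 and -0.003 for Hspd1 and Hspe1. These correlations describe libraries that differ in depth and in side of the split.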

How the data were processed

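Sorted luminal and basal mammary cells were profiled by 3′ mRNA sequencing with molecular identifiers. The authors trimmed reads with BBDuk, aligned them to GRCm39 with Bowtie2 and then removed duplicate reads with UMI-tools. The remaining reads went through the nextpresso pipeline, and FastQC 0.11.9 is named in the submitters' processing notes. Counts over Gencode vM26 genes were scaled by DESeq2 size factors. The deposited signal values are these normalized counts, for genes above 10 in at least 25% of samples. Dividing by the smallest step gave whole reads for 100% of values (tolerance 0.001).

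Differences were tested with limma 3.58.1 (trend) on log2(value + 1), 2 groups per fit, for genes above 10 in at least 25% of the libraries in the fit, with Benjamini-Hochberg adjustment over all genes tested and a threshold of 0.05. Lineage and interaction used 1 mean per group. All fold changes are on this scale, which understates those of low genes. As alternatives, the recovered reads were tested with edgeR 4.0.16 and with DESeq2 1.42.0, and the main test was repeated with other pseudocounts (0.5, 4), filters, quantile normalization, array weights, other groupings, each mouse left out and the mouse as a block. Scripts were tested on simulated data. Replicates are mice, so p-values of the genotype, parity and interaction comparisons measure the spread between mice. The main lineage fit took libraries of the same mouse as independent, so its p-values are over libraries and leave out the pairing. Replicate libraries differed by more than sampling noise (lowest chi-square per degree of freedom 2.33 over 43 pairs). The mouse number marks the same animal in both lineages, and the correlation of paired deviations was -0.24 to 0.34 (median 0.09).

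The chaperone genes and all gene lists were chosen with earlier results of these data known. All 10 chaperone genes were named in every comparison. From the other lists, at most 3 genes per direction and comparison with the lowest adjusted p were named, plus Hsf1 and genes of like pattern (the 3 highest Pearson r). Single further members of a list, Hspa9, Hspb6, Hspb8, Cryab and Hsf2, were named after their values were seen. Sequences and gene models came from GRCm39 with GENCODE vM39. The count of shared read windows for 1 chaperone gene is not reported here.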

Additional observations from a re-analysis of the deposited data

Results flagged for a closer look

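The genotype difference differed between parous and virgin luminal cells, by the test of the interaction itself, for Hspe1 (-2.57, adjusted p = 0.00765) and Hspa8 (-1.26, adjusted p = 0.0376) in limma. With the side of the Clec2d split as a term these were -1.16 (adjusted p = 0.219) and -0.65 (adjusted p = 0.529). That term was estimated only within parous K8imTmG cells, the single luminal group with both sides. The part of the split was not tested beyond this fit. Of 50 sets of values (10 chaperone genes in the 5 groups of at least 4 libraries), 0 held a library far outside the others by Dixon's criterion, which chance passes in about 1 of 20.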

How the results depend on the processing

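Among 110 differences (10 chaperone genes in 11 comparisons), 14 were called by limma. None of the 14 changed sign under any alternative that was run, and 4 kept the call in all of them, namely Hspe1 for parity in K8iΔRank luminal cells and Hspb1, Dnajb1 and Bag3 for lineage. Of the 96 not called, 25 passed the threshold in some alternative and 39 changed sign in some. With array quality weights the number of chaperone genes called moved from 1 to 3 for genotype in virgin luminal, from 0 to 3 in parous luminal, from 2 to 4 in virgin basal and from 0 to 5 in parous basal cells, and from 0 to 8 for parity in K8imTmG luminal cells. The same fits called 2514 of 10066 genes for genotype in virgin luminal and 1147 of 10090 in parous luminal cells. They called 2572 of 10592 for genotype in parous basal cells and 3993 of 10279 for parity in K8imTmG luminal cells. In virgin basal cells the count of this fit was at most 1803 of 10616. The weights did not converge in some of these fits. DESeq2 called 1, 3 and 1 instead of 0 for genotype in parous luminal and parous basal cells and for parity in K8imTmG luminal cells. With all 4 groups of a lineage in 1 fit the counts were 0 (virgin luminal), 4 (virgin basal) and 1 (parous basal) for genotype and 1 (K8imTmG) and 1 (K8iΔRank) for luminal parity. A mean of at least 50 gave 2 for genotype in parous basal cells. The Clec2d-low libraries alone gave 4 for parity in K8imTmG luminal cells, and the side as a term gave 0 for the luminal interaction. Without the 3 low libraries, an alternative chosen after seeing the data, the counts were 0 for genotype in virgin luminal, 4 in virgin basal cells and 1 for the luminal interaction. Leaving out 1 mouse at a time gave 0 to 1 for genotype in virgin luminal, 0 to 3 in virgin basal and 0 to 2 in parous basal cells, 0 to 1 and 2 to 4 for luminal parity in K8imTmG and K8iΔRank, 4 to 6 for lineage and 1 to 2 for the luminal interaction. The 3 in virgin basal cells came without K8iΔRank 821 or 822, with Hspa1b gained, the 2 in parous basal cells without K8iΔRank 794 and the 1 for K8imTmG parity without 494. For lineage, Hspa1a lost its call when any 1 of 12 of the 17 mice was left out, Hspe1 when any 1 of 6 was, and both under quantile normalization (4 called). Without the 3 low libraries Hspa1a was at -0.33 (adjusted p = 0.174).

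For the pairing, the mouse as a random replicate block left 6 chaperone genes called for lineage (consensus correlation 0.06), and as a fixed block 4. The counts over all genes of both fits lie within the lineage range given below. The other comparisons hold each mouse once and had no block.

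Counts over all genes depended more on the processing. Over the alternatives other than leaving out mice they ran from 70 to 2514 (99 by the test used) for genotype in virgin luminal, 7 to 1147 (10) in parous luminal, 620 to 1803 (954) in virgin basal and 0 to 2572 (96) in parous basal cells, from 4 to 3993 (226) and 222 to 1857 (1643) for luminal parity in K8imTmG and K8iΔRank, from 0 to 44 and 0 to 214 (0 in both) for basal parity, from 3070 to 6508 (6197) for lineage, and from 5 to 2671 (1326) and 0 to 18 (0) for the luminal and basal interactions. Quantile normalization moved the share of higher calls from 100% to 81.8% in parous luminal cells. Low depth, down to 340445 reads, limits the genes with few reads, such as Hspa1b at 6 reads.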
